A study of Mus musculus with 6 samples.

Results

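The 10 genes described here make up the signalling route that starts at the erythropoietin receptor: the receptor gene Epor, its kinase gene Jak2, the transcription factor genes Stat5a and Stat5b, the feedback genes Cish, Socs1, Socs2 and Socs3, and the target genes Pim1 and Bcl2l1. They were chosen by name and not by a measured value, though with earlier results of these data known. All 10 were found among the 55421 genes of the count table and passed the filter on low counts. Transcripts were counted in 6 femur libraries, all from C57BL/6 mice aged 12 weeks with the genotype label WT: 3 carried the treatment label Control and 3 the label Phlebotomy, the removal of blood. The material was a bone fraction enriched for osteocytes, the cells that sit within the mineralised matrix. Marker transcripts of other bone and marrow cells were also detected in it, as given below. How much blood was taken, and how long before collection, is not given in the sources used here. The labels do not say that each library came from a separate animal, so a p-value here speaks only of the spread among the libraries, which may be technical. The comparison bears on how the transcripts of this fraction differ after blood loss.

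Erythropoietin is the kidney hormone that keeps red cell precursors alive and dividing, and blood loss is a classical stimulus for its release. It binds a receptor dimer that has no enzyme activity of its own. JAK2, the kinase held at the cytoplasmic part of the receptor, phosphorylates the receptor and then STAT5A and STAT5B, which pair, enter the nucleus and bind DNA at sites of the form TTCNNNGAA. Among the genes they switch on are survival genes and the CISH and SOCS inhibitors, which return to the receptor or the kinase and shut the signal down. Most of these proteins also serve other cytokine receptors, so their transcripts in bone are not specific to erythropoietin.

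Libraries held 11219243 to 19015588 gene counts, and 3 counts corresponded to 0.164 to 0.296 CPM (library-scaled counts, with a TMM correction for composition). Values of a group are given in the order of its libraries, which are numbered 1, 2 and 4. Each of the 10 genes had 89 or more counts in every library. Phlebotomy 2 stood apart from phlebotomy 1 and 4: on the first principal component, with 41.8% of the variance, it lay at -7.80, while phlebotomy 1 and 4 lay at 54.9 and 40.2 and the controls between -51.4 and -16.6. The same library, although labelled WT, held 2288 counts for Neo, 920 for tg_EGFP and 403 for tg_DsRed, against at most 12, 6 and 1 in the other libraries, so results are also given without it. All 8 osteocyte markers were detected, with a summed level of 22894 to 49058 CPM in controls and 13914 to 25130.4 CPM after phlebotomy. Their log2 fold changes were below 0 in 8 of 8, against 50.2% of all genes. An unadjusted p under 0.05 in edgeR with a lower level was found in 7 of 8, where 9.42% of all genes met the same rule. The 8 neutrophil markers, genes of marrow cells, summed to 20005 to 47538 CPM in controls and 26870.5 to 42858 CPM after phlebotomy. Their log2 fold changes were above 0 in 5 and below 0 in 3.

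None of the 10 genes passed an adjusted p of 0.05 in edgeR's quasi-likelihood test, and 3 of the 18838 genes tested did so (0.0159%). DESeq2 and limma-voom likewise called 0 of the 10. All 10 nonetheless had a log2 fold change below 0, against 50.2% of all genes, and their median was -0.29 against -0.0028 for all genes. Socs3, a feedback inhibitor, had the most negative value, and with Jak2 it made up the 2 genes with an unadjusted p under 0.05 and a lower level after phlebotomy, where 9.42% of all genes met the same rule. In 4 of the 10, namely Jak2, Stat5a, Socs2 and Socs3, every phlebotomy library lay below every control library, against 11.2% of all genes. The receptor gene itself and Cish, a STAT5 target, showed overlapping groups.

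**Figure D1:**
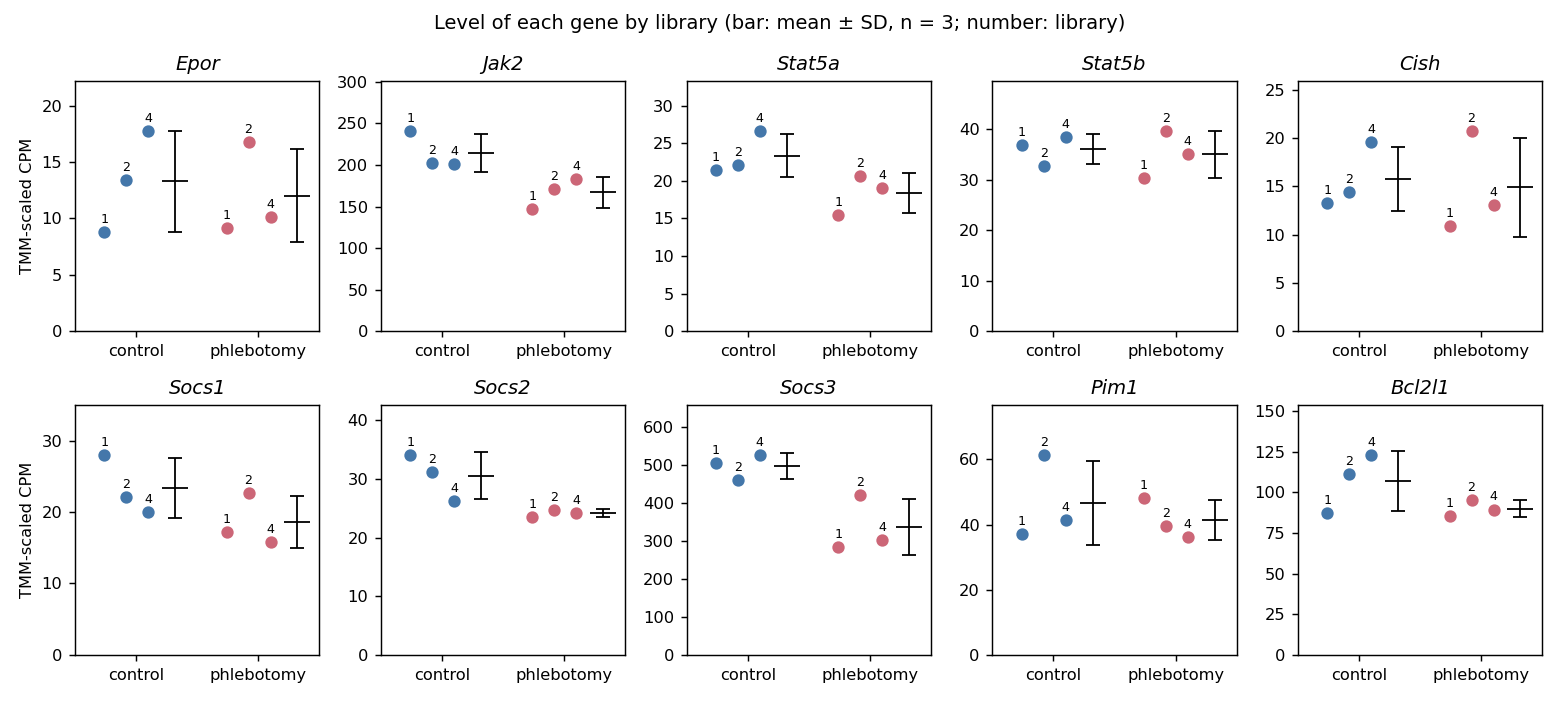
Level of each of the 10 genes in TMM-scaled CPM on the vertical axis, by group on the horizontal axis; each point is a library with its number, and the bar beside the points is the mean ± SD of 3 libraries. The groups are separate in Jak2, Stat5a, Socs2 and Socs3 and overlap in the other 6 genes.

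Epor encodes the erythropoietin receptor and lies at chr9:21958897-21963506 on the minus strand of GRCm38 (ENSMUSG00000006235). Control libraries held 8.78, 13.4 and 17.7 CPM of it and phlebotomy libraries 9.16, 16.7 and 10.1 CPM. Control 4 and phlebotomy 2 were the high libraries, control 1 and phlebotomy 1 the low ones, and the groups overlapped over nearly their whole range. The mean was 13.3 ± 4.48 CPM in controls and 12.0 ± 4.13 CPM after phlebotomy (SD, n = 3). This gave a log2 fold change of -0.16 ± 0.28 (SE), with an adjusted p of 0.807 in edgeR's quasi-likelihood test. Without phlebotomy 2 it was -0.51 (edgeR adjusted p 0.257), without phlebotomy 1 it was 0.03 and without control 4 it was 0.08, so its sign rested on single libraries.

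Epor is known for its use by red cell precursors, where the erythroid factor GATA1 binds near its start. The 250 bases before the start given by RefSeq (GRCm38.p6, chr9:21963577-21963826, minus strand) are shown because they hold a match to a GATA motif, in capitals as TTATCT, the reverse complement of AGATAA.
Epor upstream: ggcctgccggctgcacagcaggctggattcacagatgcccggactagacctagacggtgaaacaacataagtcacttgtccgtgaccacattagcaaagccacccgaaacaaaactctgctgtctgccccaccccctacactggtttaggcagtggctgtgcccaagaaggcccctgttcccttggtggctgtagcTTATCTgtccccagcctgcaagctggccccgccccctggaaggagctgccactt
The match spans bases -54 to -49 from that start, whose first bases were not found in an annotated Epor transcript (GENCODE M21). AGATAA, read on both strands, was found in 9.99% of the 32851 RefSeq windows of this length, and TGATAA, the other form searched, in 7.94% and not in this one.

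Erythroid markers were compared with Epor inside each library. The 10 markers summed to 4944, 9131 and 11366 CPM in the control libraries and to 11003, 9302 and 8183 CPM in the phlebotomy libraries, and all 10 were detected. Of their log2 fold changes 7 were above 0, with 2 at an unadjusted p under 0.05 in edgeR, where 7.01% of all genes were higher at that p. Epor counts per 1000 erythroid marker counts were 1.78, 1.47 and 1.56 in controls and 0.833, 1.80 and 1.24 after phlebotomy. Phlebotomy 2 was the highest library and phlebotomy 1 the lowest, so the groups overlapped. The difference of the mean log2 ratios was -0.38, with a two-sided exact permutation p of 0.4, where 3 against 3 libraries cannot go below 0.1. Without phlebotomy 2 the difference was -0.65, with an exact permutation p of 0.2. Most of the marker sum came from the globin genes Hbb-bt and Hba-a1, at 5111 and 3980 CPM in phlebotomy 1. With the globin genes left out and all 6 libraries kept, the difference was -0.30, with an exact permutation p of 0.4. In bulk bone, fewer cells of a type and less RNA per cell cannot be told apart.

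**Figure D2:**
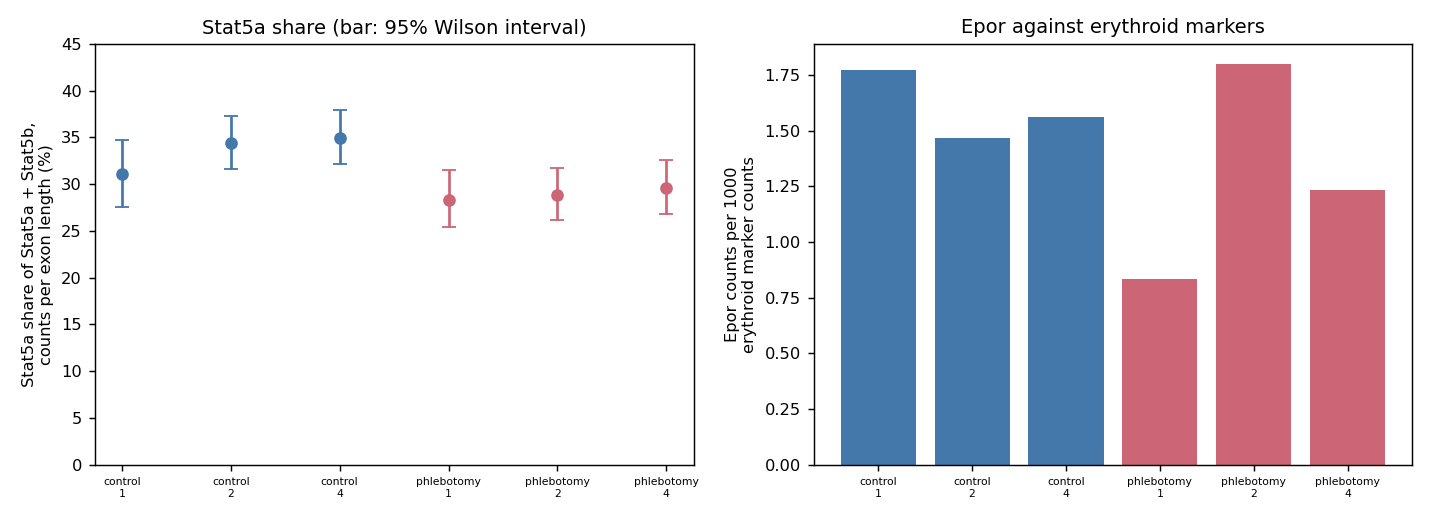
Left, Stat5a share (%) of Stat5a plus Stat5b counts per exon length in each library, with the 95% Wilson interval; right, Epor counts per 1000 erythroid marker counts in each library. The 3 phlebotomy libraries lie at 28.3% to 29.6% on the left, below the 3 controls, and on the right phlebotomy 2 (1.80) lies level with control 1 (1.78).

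Jak2 encodes the kinase bound to the receptor (chr19:29251828-29313080, plus strand, ENSMUSG00000024789). Control libraries held 241, 203 and 201 CPM of it and phlebotomy libraries 147, 172 and 183 CPM. Control 1 was the highest and phlebotomy 1 the lowest, and the groups did not overlap. The mean was 215 ± 22.6 CPM in controls and 167 ± 18.6 CPM after phlebotomy (SD, n = 3), a log2 fold change of -0.36 ± 0.17 (SE) with an unadjusted p of 0.0470 and an adjusted p of 0.299 in edgeR's quasi-likelihood test. The difference therefore did not pass over all genes. It was -0.42 without phlebotomy 2 and -0.25 without phlebotomy 1, and negative in all 16 alternative settings.

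Stat5a and Stat5b encode the paired transcription factors that JAK2 phosphorylates, and they lie next to each other on chromosome 11. Stat5a (chr11:100859351-100885169, plus strand, ENSMUSG00000004043) was at 21.4, 22.1 and 26.6 CPM in the control libraries and at 15.4, 20.7 and 19.02 CPM in the phlebotomy libraries. All 3 phlebotomy libraries were lower than every control, with phlebotomy 2 just under control 1. The mean was 23.4 ± 2.83 CPM in controls and 18.4 ± 2.69 CPM after phlebotomy (SD, n = 3), a log2 fold change of -0.35 ± 0.19 (SE) with an adjusted p of 0.377 in edgeR's quasi-likelihood test. Stat5b (chr11:100780731-100850724, minus strand, ENSMUSG00000020919) was at 36.9, 32.7 and 38.4 CPM in the control libraries and at 30.2, 39.6 and 35.1 CPM in the phlebotomy libraries. Phlebotomy 2 was the highest of the 6 libraries and phlebotomy 1 the lowest. Stat5b had a log2 fold change of -0.04 ± 0.18 (SE), with an adjusted p of 0.927 in edgeR's test, and it was 0.08 without phlebotomy 1.

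The STAT5 genes were also compared with each other inside each library, where scaling between libraries plays no part. Stat5a made up 31.1%, 34.4% and 35.0% of Stat5a plus Stat5b counts per exon length in control 1, 2 and 4, with 95% Wilson intervals of 27.6% to 34.7%, 31.6% to 37.3% and 32.1% to 37.9%. It made up 28.3%, 28.8% and 29.6% in phlebotomy 1, 2 and 4, with intervals of 25.4% to 31.5%, 26.1% to 31.7% and 26.8% to 32.6%. Phlebotomy 2, which stood apart over all genes, lay here between the other phlebotomy libraries. The share was 33.5 ± 2.10% in controls and 28.9 ± 0.641% after phlebotomy (SD, n = 3), a difference of -4.55 percentage points with a two-sided exact permutation p of 0.1, the smallest that 3 against 3 libraries can give. Leaving out each library in turn gave -5.75 to -3.80 points.

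How far reads can separate the STAT5 genes depends on their sequence. The coding sequences of Stat5a-203 and Stat5b-202 in GENCODE M21 were identical at 2080 of 2291 aligned bases (90.8%). The longest stretch without a difference was 324 bases, codons 191 to 298 of both, spread over exons 6 to 8 at chr11:100874023-100874983 for Stat5a and chr11:100797741-100798701 for Stat5b. Its first 126 bases, codons 191 to 232, are printed because a read of 126 bases from there fits both genes unless its mate lies outside the stretch.
Stat5a and Stat5b shared: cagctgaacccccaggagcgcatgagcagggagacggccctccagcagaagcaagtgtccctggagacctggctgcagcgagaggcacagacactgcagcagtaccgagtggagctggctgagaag
Of the 2266 windows of that length in the Stat5a coding sequence, 203 (8.96%) lay in both genes. The authors' way of counting such reads is unknown from the sources used here, and part of either count is uncertain. Exons of Stat5a also overlap those of Stat3 on the opposite strand by 72 bases, and the library kit does not mark strand.

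Cish encodes a feedback inhibitor that docks on the activated receptor and is a textbook STAT5 target (chr9:107296026-107302784, plus strand, ENSMUSG00000032578). Control libraries held 13.3, 14.4 and 19.6 CPM of it and phlebotomy libraries 10.9, 20.7 and 13.0 CPM. As for Epor, control 4 and phlebotomy 2 were the high libraries, and the groups overlapped. The mean was 15.7 ± 3.34 CPM in controls and 14.9 ± 5.17 CPM after phlebotomy (SD, n = 3), a log2 fold change of -0.09 ± 0.25 (SE) with an adjusted p of 0.888 in edgeR's quasi-likelihood test. It was -0.44 without phlebotomy 2 and 0.12 without phlebotomy 1. Exons of Cish share 740 bases with Gm17041 and Gm17040 on the opposite strand, whose reads cannot be told apart from its own in a library without strand.

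Epor and Cish followed each other across the 6 libraries. Relative to its mean over the 6 libraries, Epor ran from 69.4% in control 1 to 140% in control 4, and Cish from 71.2% in phlebotomy 1 to 135% in phlebotomy 2. The Pearson correlation of their log2(CPM + 0.5) was 0.92, and Cish ranked 149 for Epor among 10569 genes with a mean of at least 5 CPM. The genes closest to Epor by this measure were Sh2d3c (0.998), an adaptor gene, Itgb2l (0.997), an integrin subunit gene, and Ica1 (0.990). Those closest to Cish were Slain2 (0.984), a microtubule gene, Naif1 (0.979) and Slc35d3 (0.976). These are descriptions over 6 points that share depth and composition within a library. The 7 megakaryocyte markers, genes of the platelet lineage, summed to 600.1, 678 and 1345 CPM in the control libraries and to 837, 1100.2 and 699.8 CPM in the phlebotomy libraries. Their highest libraries were thus also control 4 and phlebotomy 2, and the marker Gp1bb had only 3 to 7 counts. Among the other marker lists, only the B lineage sum was also highest within each group in control 4 (275 CPM) and phlebotomy 2 (239 CPM). The part of either list in the levels of Epor and Cish was not tested.

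**Figure D3:**
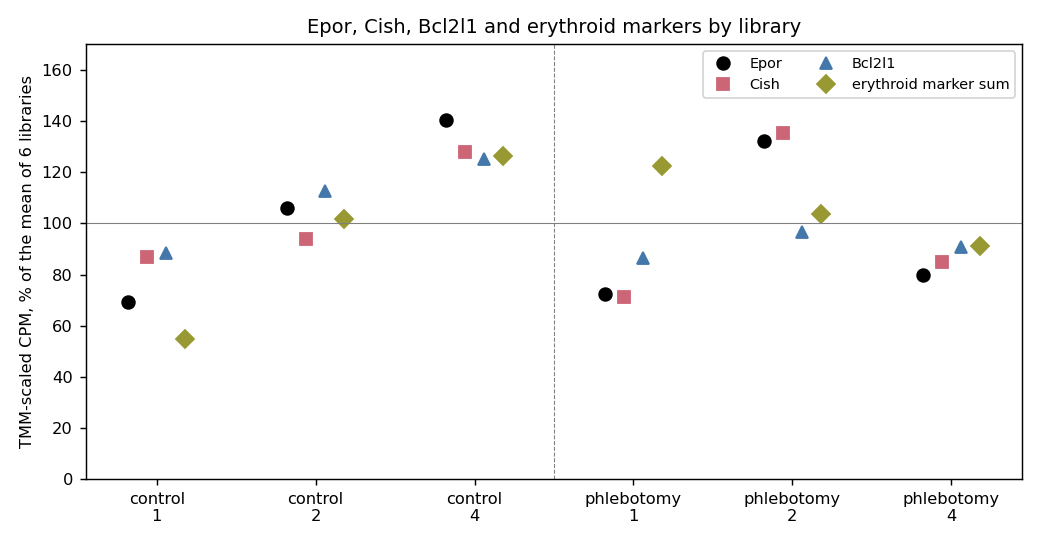
Level of Epor, Cish, Bcl2l1 and the sum of 10 erythroid markers in each library, as a percentage of that quantity's mean over 6 libraries (vertical axis); controls are left of the dashed line. Epor and Cish are high in control 4 and phlebotomy 2, while the erythroid sum is 122% in phlebotomy 1, where Epor is 72.4%. Most of the erythroid sum comes from the globin genes Hbb-bt and Hba-a1.

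Socs1, Socs2 and Socs3 encode suppressors of cytokine signalling, which block JAK kinases or receptor docking sites and steer their targets to degradation. Socs1, the JAK inhibitor best known from interferon signalling (chr16:10782240-10785536, minus strand, ENSMUSG00000038037), was at 28.0, 22.1 and 20.03 CPM in the control libraries and at 17.1, 22.7 and 15.9 CPM in the phlebotomy libraries. Phlebotomy 2 lay among the controls and the other phlebotomy libraries lay below them. Socs1 had a log2 fold change of -0.33 ± 0.21 (SE), with an adjusted p of 0.435 in edgeR's quasi-likelihood test. Socs2, the inhibitor best known from growth hormone signalling (chr10:95385362-95417180, minus strand, ENSMUSG00000020027), was at 34.1, 31.3 and 26.2 CPM in the control libraries and at 23.5, 24.8 and 24.3 CPM in the phlebotomy libraries. Its phlebotomy libraries were close to each other, at 24.2 ± 0.613 CPM, and all below the controls at 30.5 ± 4.01 CPM (SD, n = 3). Socs2 had a log2 fold change of -0.33 ± 0.18 (SE), with an adjusted p of 0.364 in edgeR's test.

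Socs3, the inhibitor best known as the brake on the interleukin 6 receptor family and STAT3, was the most abundant of the 10 per length (chr11:117966079-117970047, minus strand, ENSMUSG00000053113). Control libraries held 506, 460 and 526 CPM of it and phlebotomy libraries 284, 420 and 303 CPM. All phlebotomy libraries were below all controls, and phlebotomy 2 was the nearest to them. The mean was 497 ± 33.9 CPM in controls and 336 ± 73.6 CPM after phlebotomy (SD, n = 3), 0.675 times the control level in the fit. Socs3 thus had a log2 fold change of -0.57 ± 0.19 (SE), with an unadjusted p of 0.00906 and an adjusted p of 0.202 in edgeR's quasi-likelihood test. Without phlebotomy 2 it was -0.80 ± 0.19 and passed, with an edgeR adjusted p of 0.0406, where 2.99% of genes passed as lower. Without phlebotomy 1 it was -0.44, with an unadjusted p of 0.0437 and an adjusted p of 0.627. The osteocyte marker sums were 49058, 45640 and 22894 CPM in the control libraries and 13914, 25130.4 and 25067 CPM in the phlebotomy libraries. They were lowest in phlebotomy 1, as was Socs3. Control 4, the highest library for Socs3, lay below phlebotomy 2 and 4 in these sums. Most of each sum was Dmp1, with 18771 of the 22894 CPM in control 4. For Mepe, Sost, Fbln7 and Irx5, control 4 lay above every phlebotomy library. For Dmp1, Phex, Ackr3 and Pdpn it did not. The 7 osteoblast markers, genes of the bone-forming cells, were all detected. They summed to 59593, 40250.3 and 40149 CPM in controls and 13148, 40886 and 18771 CPM after phlebotomy. Their log2 fold changes were below 0 in 7 of 7. Of these, 3 had an unadjusted p under 0.05 in edgeR, where 9.42% of all genes were lower at that p. Phlebotomy 2 thus lay among the controls in this sum and in Bglap, Bglap2, Col1a2, Sp7 and Alpl. It lay below every control in Col1a1 and Ibsp. The part of either marker list in the Socs3 values was not tested.

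The promoter windows of RefSeq (GRCm38.p6) matched 9 of the 10 genes, all but Socs2, with 14 entries. TTCNNNGAA, the form bound by STAT proteins (the same on both strands), was searched in the 250 bases before each start. It was found in 7.02% of the 32851 windows and, among the 10 genes, in 1 window, that of Socs3. That site is printed in capitals with 10 bases on each side (chr11:117969502-117969530, minus strand), since Socs3 had the most negative fold change.
Socs3 STAT motif: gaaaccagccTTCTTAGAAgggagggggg
It spans bases -154 to -146 from the RefSeq start, which lies inside the GENCODE span of Socs3 given above. The first bases after that start were not found in a GENCODE transcript of Socs3, and 77 of the window's 250 bases are exonic. The windows of Epor, Jak2, Stat5a, Stat5b, Cish, Socs1, Pim1 and Bcl2l1 did not hold these letters. AGATAA was found besides Epor in 1 of the 3 windows of Bcl2l1, at -41 to -36. All 250 bases of that window, and of the Cish window, lie in annotated exons. The GATA and STAT motifs searched did not overlap each other in these windows.

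Pim1 and Bcl2l1 are survival genes downstream of STAT5. Pim1, a serine/threonine kinase gene (chr17:29490753-29496112, plus strand, ENSMUSG00000024014), was at 37.1, 61.4 and 41.4 CPM in the control libraries and at 48.2, 39.7 and 36.2 CPM in the phlebotomy libraries. Control 2 was the highest and phlebotomy 4 the lowest, with overlapping groups. Pim1 had a log2 fold change of -0.18 ± 0.21 (SE), with an adjusted p of 0.692 in edgeR's quasi-likelihood test, and it was 0.05 without control 2. Bcl2l1, which encodes the anti-apoptotic protein BCL-xL needed by maturing red cells (chr2:152780668-152831728, minus strand, ENSMUSG00000007659), was at 87.1, 111 and 123 CPM in the control libraries and at 85.2, 95.4 and 89.5 CPM in the phlebotomy libraries. Only control 1 kept the groups from separating. The mean was 107 ± 18.4 CPM in controls and 90.0 ± 5.09 CPM after phlebotomy (SD, n = 3), which gave a log2 fold change of -0.25 ± 0.17 (SE) and an adjusted p of 0.472 in edgeR's test. Exons of Pim1 share 488 bases with Gm26885 on the opposite strand.

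**Figure D4:**
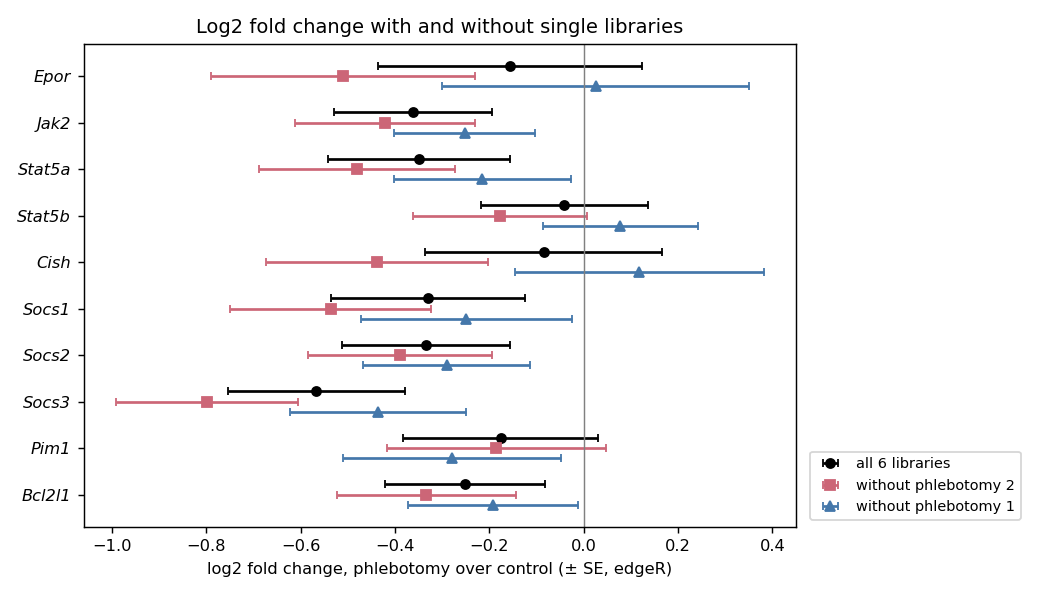
Log2 fold change of phlebotomy over control (horizontal axis, ± SE) for each of the 10 genes, with all 6 libraries, without phlebotomy 2 and without phlebotomy 1. Without phlebotomy 2 the values run from -0.80 in Socs3 to -0.18 in Stat5b, and without phlebotomy 1 those of Epor, Stat5b and Cish lie above 0.

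With phlebotomy 2 left out, the median of the 10 genes was -0.43, against -0.0059 for all genes. Of the 10, 4 (Jak2, Stat5a, Socs1 and Socs3) had an unadjusted p under 0.05 and a lower level, where 14.5% of all genes met the rule. Among genes whose value without this library has not yet been given, Stat5a was at -0.48, Socs1 at -0.54, Socs2 at -0.39, Bcl2l1 at -0.33 and Pim1 at -0.19. With phlebotomy 1 left out, the median of the 10 was -0.23, against 0.0026 for all genes. Socs3 alone then met the rule, where 4.14% of genes did. Across 18822 genes the log2 fold change correlated with transcript length (Spearman -0.246) and GC content (-0.230), which are properties of genes and not replicates. After a trend on both was removed, a step chosen after seeing the data, the median of the 10 genes was -0.13, against -0.044 for all genes. In that fit Cish (0.04) and Stat5b (0.11) lay above 0, Stat5a was -0.12 and Socs3 was -0.40.

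To compare genes, levels were divided by the joined length of all annotated exons, 1989 bases for Epor and 6419 for Cish. The transcripts in use may be shorter than this length, so the order depends in part on the annotation. Per kilobase of exon, the control order was Socs3 (172 ± 11.7 CPM per kb), Jak2 (42.7 ± 4.50), Bcl2l1 (23.4 ± 4.01) and Pim1 (13.9 ± 3.86). Each of these was above the next in every control library. Socs1 (8.04 ± 1.43 CPM per kb), Epor (6.69 ± 2.25) and Stat5b (6.50 ± 0.533) followed, with overlapping ranges between neighbours, and then Stat5a (3.28 ± 0.397), Socs2 (3.20 ± 0.420) and Cish (2.45 ± 0.520), likewise overlapping. Stat5b was above Stat5a in all 3 controls. After phlebotomy the means were 116 CPM per kb for Socs3, 33.2 for Jak2, 19.6 for Bcl2l1 and 12.3 for Pim1. The other 6 lay between 6.38 for Socs1 and 2.32 for Cish, and Stat5b (6.32) then stood above Epor (6.04).

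The other genes of the pathway came from a list of 85, of which 80 were tested. In edgeR's quasi-likelihood test 1 of the 80 was called higher and 0 lower over all genes. At an unadjusted p under 0.05, 3 were higher and 19 lower, where 7.01% of all genes were higher and 9.42% lower. Of the 80 log2 fold changes 61 were below 0, with a median of -0.23, beside -0.29 for the 10 genes. Without phlebotomy 2 there were 6 calls, where 4.74% of all genes were called.

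Among ligands, the hormone gene Epo had 0, 1 and 0 counts in controls and 0, 2 and 6 after phlebotomy, too few to test, and Thpo, Il3, Gh and Prl were not tested either. Of the 5 tested, 0 had an unadjusted p under 0.05, among them the stem cell factor gene Kitl (-0.21), the growth factor gene Igf1 (-0.11), the leptin gene Lep and the interleukin gene Il5. Of 10 other receptors that use JAK2 and STAT5, 3 had a lower level at an unadjusted p under 0.05. They were Kit (-0.52, edgeR adjusted p 0.213), the receptor of stem cell factor on early precursors, Csf2rb (-0.47, edgeR adjusted p 0.220) and Csf2rb2 (-0.51, edgeR adjusted p 0.236). Csf2rb and Csf2rb2 are closely related receptor chain genes for interleukin 3 family cytokines, and their reads may be split between them. Prlr, the prolactin receptor gene, was at 0.83, and 0 of 10 were higher at that level. The receptor partner gene Tfr2 (0.39) and the trafficking genes Scrib (-0.33) and Rnf41 (-0.21) had p-values above 0.05.

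Of the other JAK genes, Jak1 had a log2 fold change of -0.31, Tyk2 of -0.24 and Jak3 of 0.07, and 0 of 3 had an unadjusted p under 0.05. Of 5 other STAT genes, Stat3, the factor upstream of Socs3, was at 601, 529 and 559 CPM in the control libraries and at 261, 427 and 376 CPM in the phlebotomy libraries. Its groups did not overlap, and phlebotomy 1 was again the lowest and phlebotomy 2 the nearest to the controls. Stat3 had a log2 fold change of -0.67 ± 0.20 (SE), with an adjusted p of 0.178 in edgeR's test, and -0.86 without phlebotomy 2, where it passed with an edgeR adjusted p of 0.0437. Stat6 (-0.20) and Stat4 (0.19) had unadjusted p-values above 0.05.

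Of 19 adaptor and parallel kinase genes, 6 had a lower level and 0 a higher one at an unadjusted p under 0.05. The docking protein genes Gab1 (-0.81, edgeR adjusted p 0.183) and Irs2 (-0.61), the adaptor gene Crkl (-0.49) and the phospholipase gene Plcg1 (-0.51) were the 4 with the smallest p. Without phlebotomy 2, Gab1 (-1.06, edgeR adjusted p 0.0425) and Irs2 (-0.88, edgeR adjusted p 0.0368) passed. Of the 4 other SOCS genes, Socs5 (-0.44) had an unadjusted p under 0.05, while Socs7 was at -0.27, Socs6 at -0.18 and Socs4 at -0.09. Of 14 phosphatase and other inhibitor genes, 3 were lower at that level: the ubiquitin ligase gene Cbl (-0.45), Pias4 (-0.41), of a family that binds STAT proteins, and Sh2b3 (-0.39), which encodes the JAK2 inhibitor LNK. Cblb (-0.40), a relative of Cbl, had a p just above it.

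Of 17 other STAT5 and erythropoietin target genes, Erfe, which encodes the erythroid hormone erythroferrone, was called higher. It had 6, 1 and 2 counts in controls and 70, 72 and 74 after phlebotomy. All 3 phlebotomy libraries, phlebotomy 2 among them, were above every control. The log2 fold change of Erfe was 4.33 ± 0.52 (SE), with an adjusted p of 0.00641 in edgeR's test, and it depends on the small number added to control counts. It was 5.51 without control 1 and 3.71 without control 2. Erfe was not called in edgeR without phlebotomy 1 (adjusted p 0.199) or by limma-voom (adjusted p 0.123), and DESeq2 gave it no adjusted p (log2 fold change 4.38, unadjusted p 4.22e-13). DESeq2 instead called Myc (-0.60, adjusted p 0.0305) and Tfrc (0.80, adjusted p 0.0332), 2 genes that did not pass in edgeR with all 6 libraries. The transferrin receptor gene Tfrc (0.79, edgeR adjusted p 0.167) was higher at an unadjusted p under 0.05, and Myc (-0.61, edgeR adjusted p 0.160) and Id1 (-0.41) were among 5 that were lower. Without phlebotomy 2, Tfrc (0.95, edgeR adjusted p 0.0310) and the survival gene Bcl2 (-0.74, edgeR adjusted p 0.0495) passed as well. The target genes thus held values on both sides of 0 with a median of -0.28, close to that of the 10 genes.

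**Figure D5:**
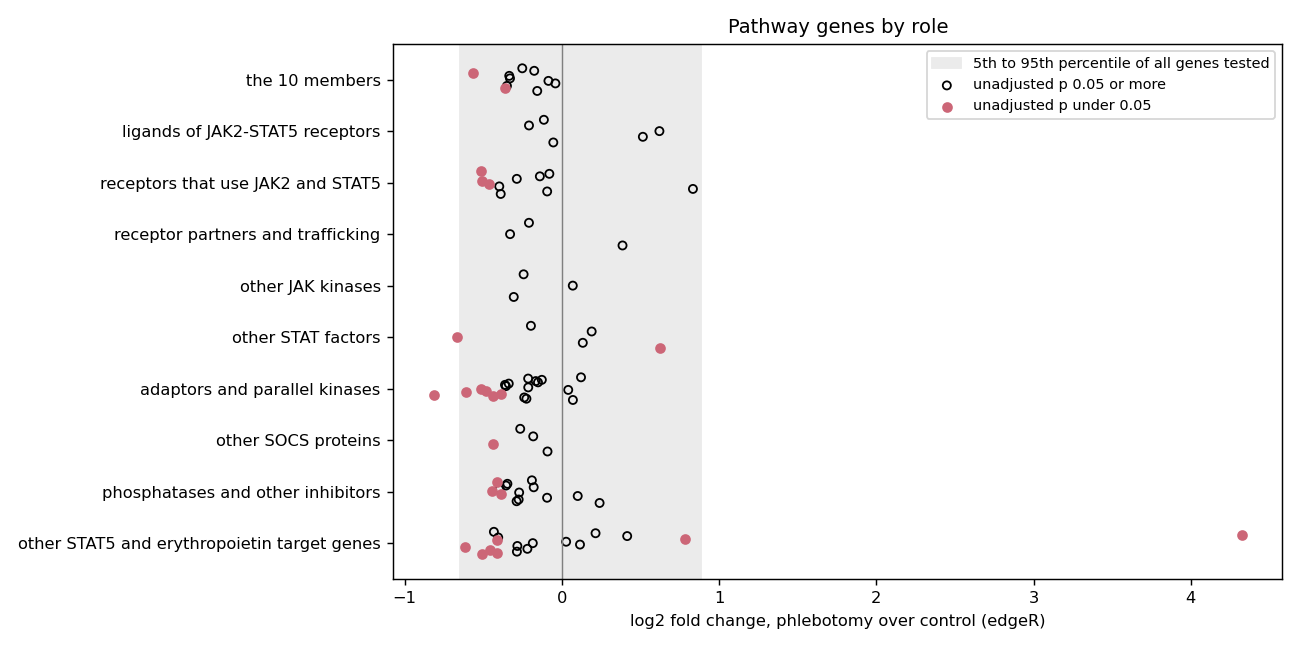
Log2 fold change of phlebotomy over control (horizontal axis) for the 10 genes and the 80 other pathway genes tested, grouped by role; filled points have an unadjusted p under 0.05, and the grey band is the 5th to 95th percentile of all genes tested, -0.64 to 0.88. Of the 80, 61 lie left of 0, and Erfe lies alone at 4.33.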

How the data were processed

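For 6 libraries the authors deposited raw gene counts, the same counts with low genes removed, and a signal table of TMM-scaled CPM (its name gives the unit). The count table has 55440 rows, and 19 that name no gene (0.00278% to 0.0284% of counts) stayed out of library sizes and tests. GRCm38.p3 and mm10 are the builds in the submitters' processing notes, which also list STAR (2.7.3a and 2.5.2a), limma, edgeR and DESeq2 without roles. The counter and its strand setting were not stated there. Per the labels' protocols, libraries were made with Nextera XT and read at 126 bases in paired-end mode.

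Deposited columns were read by their initial, P as phlebotomy and N, by elimination, as control, and every comparison rests on that reading. Column numbers (1, 2 and 4) differ from the titles', so columns were tied to groups only. Genes were filtered with filterByExpr (minimum count 10), scaled with TMM and tested with edgeR 4.0.16 in R 4.3.3 (robust quasi-likelihood, no covariates, Benjamini-Hochberg, threshold 0.05). Standard errors were approximated from the F statistic. Wilson intervals (95%) were computed on counts, carried through the division by exon length. They leave out all but counting error, since these reads carry no molecular identifiers. Exon lengths and coordinates came from GENCODE M21, which holds 99.5% of the gene IDs. Ratios were tested with exact permutation over libraries (scipy 1.17.1). Alternatives were other scaling and filters, DESeq2 1.42.0, voom and trend fits of limma 3.58.1 (pseudocounts 0.5 and 1 for the trend fit), a replicate block, and fits with 1 library left out. The fit was tested on simulated data. No library pair agreed within sampling noise.

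The members, the lists and the tests were chosen with earlier results of these data known. The text names all 10 members, up to 4 genes of each role by smallest p, any gene called over all genes, and the 3 genes most like Epor and Cish; Bcl2 was named after its value was seen. Some genes that the rule covers are left out of the text. Plots were made in Python 3.11.15 with matplotlib 3.10.9.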

Additional observations from a re-analysis of the deposited data

Results flagged for a closer look

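The rows of the count table that name no mouse gene, which enter no comparison above, summed to 4288 counts in phlebotomy 2, against 380 to 640 in the controls and 441 in each of the other phlebotomy libraries. They were read as vector or transgene sequences by their names. Most of the excess lay in Neo (2288 counts), tg_EGFP (920) and tg_DsRed (403), while tg_GNAS-R201C-EE was present in every library, at 372 to 619 counts. Epor and Cish were both high in this library (16.7 and 20.7 CPM), and Socs3 was closer to the controls there (420 CPM) than in phlebotomy 1 and 4. The part of this in the member values was not tested.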

How the results depend on the processing

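Over 16 alternatives for each of the 10 members, 149 of 160 values kept their direction and their side of the threshold, 10 changed sign and 1 passed the threshold. The one that passed was Socs3 without phlebotomy 2 (-0.80), and its adjusted p ran from 0.0406 to 0.627 over the alternatives. The sign changed for Stat5b with upper quartile scaling (0.040) and with the GC and length trend removed (0.11), and for Cish with the trend removed (0.038). Leaving out each library gave -0.51 to 0.078 for Epor, -0.18 to 0.078 for Stat5b, -0.44 to 0.12 for Cish and -0.33 to 0.047 for Pim1. The number of members called, 0 in the reported fit, was 0 to 1 when each library was left out, and DESeq2 called 0. The number at an unadjusted p under 0.05, 2 as reported, was 1 with DESeq2 size factors, upper quartile scaling and DESeq2. It was 3 over the authors' filtered genes and with the GC and length trend removed. It was 4 with limma-trend at either pseudocount, and 1 to 4 when each library was left out. Genes called higher over all genes, 3 as reported, numbered 166 with no low-count filter, 6 over the authors' filtered genes, 78 with DESeq2, 0 with limma-voom and 0 to 356 when each library was left out. Genes called lower, 0 as reported with 1774 at an unadjusted p under 0.05, numbered 411, 14 and 206 in the first 3 of these and 0 to 607 when each library was left out. Wider pathway calls, 1 as reported, numbered 4 with no filter, 2 with DESeq2 (Myc and Tfrc, with no adjusted p for Erfe), 0 with limma-voom and 0 to 6 when each library was left out. The cause of these differences was not tested. With the column number as a replicate block, 1 member had an unadjusted p under 0.05 and 3 genes were called higher and 0 lower. Same-numbered libraries did not deviate together (correlations of -0.110, -0.108 and -0.0616). The labels name no pairing, and with 3 libraries per group these values cannot settle whether a pairing exists. Counts of 89 to 264 for Epor and 3 libraries per group limit what differences could be seen.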
